A study of Mus musculus with 3 samples.

Results

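The 10 genes described here encode core parts of elastic fibres and of the microfibrils they form on: Eln, Fbn1, Fbn2, Fbln1, Fbln2, Fbln5, Efemp2, Ltbp1, Ltbp2 and Lox, of 20661 protein-coding genes on chromosomes 1 to 19. The genes were proposed with results of these libraries in view, and their regions were chosen by the positions of the measured summits, so counts and ranks below are descriptions. Open chromatin near them was read from ATAC-seq. A transposase cuts DNA where chromatin is accessible, and every peak of cuts is given here by its summit, 1 bp wide. A summit belonged to a gene when the nearest end of any protein-coding gene, within 50 kb, was an end of that gene. By that rule the 10 genes held 96 of 67404 summits in the day 7 immobilized library, 61 of 47912 in the day 7 non-immobilized library and 81 of 51722 in the day 0 library. At the edge of the rule, an Ltbp1 region lay 49.973 kb from the gene end, just inside. The next region out, of Fbn1, lay 55.138 kb away.

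The series concerns heterotopic ossification, in which bone grows in soft tissue, and all 3 libraries carry the label of mouse mesenchymal stem cells. One library is labelled immobilized and taken 7 days after an injury, one is non-immobilized at the same day 7, and one is from day 0, ahead of any injury. With 1 library for each group, differences have no replicates behind them, and p-values are left out. The sources used here do not give the injury, how limbs or animals were immobilized, the strain, sex or age, the number of animals or how cells were isolated.

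Elastic fibres give tissue its recoil. Tropoelastin, the product of Eln, is laid down on microfibrils built of fibrillins, fibulins carry it there, and lysyl oxidase cross-links it into an insoluble core. The same microfibrils hold latent TGF-beta through its binding proteins, so these genes also set how much of that growth factor is stored in a matrix. Fibroblasts and smooth muscle cells are the usual makers of elastic fibres.

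Sequencing gave 143818952 read pairs for the day 7 immobilized library, 173029378 for the day 7 non-immobilized library and 176119937 for day 0, with 43.4%, 42.0% and 60.2% duplicates in that order. As the lists differ in length, each was cut to its 47912 best-scoring summits before regions were compared. Summits were then widened by 250 bp on each side and merged over the libraries into regions. Markers of mesenchymal cells had regions in every library: over 12 genes, 48 were called in the day 7 immobilized, 56 in the day 7 non-immobilized and 67 in the day 0 library. Markers of other cell types also differed between libraries. The 10 keratinocyte markers had 54 regions in the immobilized, 15 in the non-immobilized and 12 in the day 0 library, the 12 endothelial markers had 49, 76 and 34, the 10 leukocyte markers 9, 11 and 8, the 8 skeletal muscle markers 20, 20 and 29, and the 10 smooth muscle and pericyte markers 34, 36 and 45. No library had a region at 5 of the 10 leukocyte markers (Itgam, Adgre1, Cd3e, Cd79a and Lyz2), while every keratinocyte marker had one in the immobilized library. Their part in the results below was not tested.

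The sequence around the transcription start could be read for 7 of the 10 genes, in 12 windows of 300 bases (250 before the start, 50 after it) from RefSeq on build GRCm38.p6, the assembly of mm10. The 5 windows that held a deposited summit in all 3 libraries are printed here, 5′ to 3′ on the gene's strand, because the summit itself fell inside the window in every library. Regions at the starts of Fbn1, Fbln5 and Ltbp2 were also called in all 3 libraries, with 1 or more summits outside the window. Capitals mark any of 7 motifs searched on both strands. The GC box was searched as GGGCGG and the CCAAT box by its own letters. The motif of the RUNX factors was searched as TGTGGT, and that of the SMAD proteins, which carry the TGF-beta signal, as CAGACA. The AP-1 motif was TGANTCA, where N is any base, the motif of the TEAD factors was GGAATG, and the TATA box was TATAAA. A run of capitals can hold overlapping matches.
Fbln1 (chr15:85205758-85206057, plus strand): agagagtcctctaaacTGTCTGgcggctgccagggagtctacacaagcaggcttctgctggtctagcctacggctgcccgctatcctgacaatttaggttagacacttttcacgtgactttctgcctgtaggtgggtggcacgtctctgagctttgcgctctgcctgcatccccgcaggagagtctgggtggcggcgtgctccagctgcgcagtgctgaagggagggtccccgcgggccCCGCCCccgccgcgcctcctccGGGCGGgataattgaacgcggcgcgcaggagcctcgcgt
Fbln2 (chr6:91212514-91212813, plus strand): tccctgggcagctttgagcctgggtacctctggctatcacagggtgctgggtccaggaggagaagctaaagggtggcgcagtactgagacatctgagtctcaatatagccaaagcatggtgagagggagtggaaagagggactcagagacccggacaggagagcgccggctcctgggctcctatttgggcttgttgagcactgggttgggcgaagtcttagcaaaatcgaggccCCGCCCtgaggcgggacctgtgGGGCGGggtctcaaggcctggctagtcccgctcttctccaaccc
Efemp2 (chr19:5473696-5473995, plus strand): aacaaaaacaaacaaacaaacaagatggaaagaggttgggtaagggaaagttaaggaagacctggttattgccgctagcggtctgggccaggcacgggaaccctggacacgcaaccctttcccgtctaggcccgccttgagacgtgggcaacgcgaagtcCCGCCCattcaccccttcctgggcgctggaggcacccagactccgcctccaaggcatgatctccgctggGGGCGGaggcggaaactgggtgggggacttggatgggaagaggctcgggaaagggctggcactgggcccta
Ltbp1 (chr17:75005279-75005578, plus strand): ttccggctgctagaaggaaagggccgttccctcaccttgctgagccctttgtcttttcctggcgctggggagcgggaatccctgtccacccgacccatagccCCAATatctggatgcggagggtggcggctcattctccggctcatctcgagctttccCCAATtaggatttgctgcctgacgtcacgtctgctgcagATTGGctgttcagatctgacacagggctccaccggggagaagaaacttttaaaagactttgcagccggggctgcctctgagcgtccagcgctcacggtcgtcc
Ltbp1 (chr17:75178531-75178830, plus strand): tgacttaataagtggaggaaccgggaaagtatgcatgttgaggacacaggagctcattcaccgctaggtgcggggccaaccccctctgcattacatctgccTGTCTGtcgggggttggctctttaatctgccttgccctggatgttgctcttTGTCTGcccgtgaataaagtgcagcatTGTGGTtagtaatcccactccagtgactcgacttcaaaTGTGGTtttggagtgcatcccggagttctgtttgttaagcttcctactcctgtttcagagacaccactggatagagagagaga

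A summit fell in 8 of the 12 windows in the day 7 immobilized library, against 42.9% of 20084 windows of all protein-coding genes. It did so in 7 windows in the day 7 non-immobilized library (40.8% of all) and in 5 at day 0 (41.9% of all). The 5 windows open in all 3 libraries compare with 34.5% of all windows, and windows of 1 gene can overlap, as both Fbln1 windows and 2 of the 3 Efemp2 windows do. The GC box was found in 8 of the 12 windows, among them those printed for Fbln1, Fbln2 and Efemp2, against 47.0% of all windows and 75.2% of the windows with a summit in all 3 libraries. The CCAAT box was found in 2 windows, those of Ltbp1 and Fbln5, against 38.1% of all, with 3 copies in the window at the outer Ltbp1 start. The SMAD letters were in 4 windows (18.6% of all) and the RUNX letters in 1 window, at the inner Ltbp1 start, in 2 copies (14.8% of all). None of the 12 windows held the AP-1, TEAD or TATA letters, which 7.06%, 13.4% and 12.7% of all windows held. These are matches of letters and not measured binding.

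Each of the 10 genes had a region within 1 kb of one of its ends that was called in all 3 libraries, against 66.3% of the 15128 protein-coding genes with any region. Efemp2, which encodes fibulin-4, a protein needed for elastin cross-linking (chromosome 19, 5473946 to 5482520), had the best-ranked of these regions in the day 7 immobilized and day 0 lists. It lay 79 bp outside the gene and ranked at 8.05% of the day 7 immobilized list, 18.2% of the day 7 non-immobilized list and 14.1% of the day 0 list, where 0% is the best score. At Fbn1, which encodes fibrillin-1, the main microfibril protein (chromosome 2, 125300594 to 125506485), the ranks were 17.8%, 17.4% and 15.9% in the same order. Both regions lay within the best-scoring 20% of every list, and Fbn1 came first in the day 7 non-immobilized one. All 10580 assigned regions within 1 kb of an end and called in all 3 libraries had median ranks of 9.90%, 14.0% and 13.1%. The 11 such regions of the 10 genes had medians of 22.5%, 28.0% and 29.6%, worse in every list. Only the Efemp2 region, in the immobilized list, ranked better than the median of all assigned regions.

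The region at the outer end of Ltbp1 and that of Eln came close to these. At Eln, which encodes tropoelastin (chromosome 5, 134702595 to 134747368), the region 346 bp beyond the upper end ranked at 18.5%, 28.8% and 17.5% of the day 7 immobilized, day 7 non-immobilized and day 0 lists. Ltbp1, which encodes a latent TGF-beta binding protein (chromosome 17, 75005480 to 75392512), had 16.7%, 22.5% and 18.2%. Lox, which encodes lysyl oxidase (chromosome 18, 52516060 to 52529867), had 24.8%, 29.0% and 32.6%. Among the fibulins, which bridge elastin and microfibrils, Fbln1 (chromosome 15, 85205949 to 85286294) had 22.5%, 28.0% and 34.4%, Fbln2 (chromosome 6, 91212460 to 91272540) had 25.97%, 23.7% and 29.6%, and Fbln5 (chromosome 12, 101746565 to 101819119) had 24.3%, 36.3% and 40.3%. Ltbp2, whose product binds microfibrils but not latent TGF-beta (chromosome 12, 84783212 to 84876558), had 30.3%, 56.8% and 45.9%. Fbn2, which encodes fibrillin-2, a fibrillin of developing tissue (chromosome 18, 58008623 to 58210572), stood last in every list at 68.1%, 75.8% and 58.9%. Ranks describe a region within its own list and, as the lists differ in length, show no change between libraries.

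**Figure D1:**
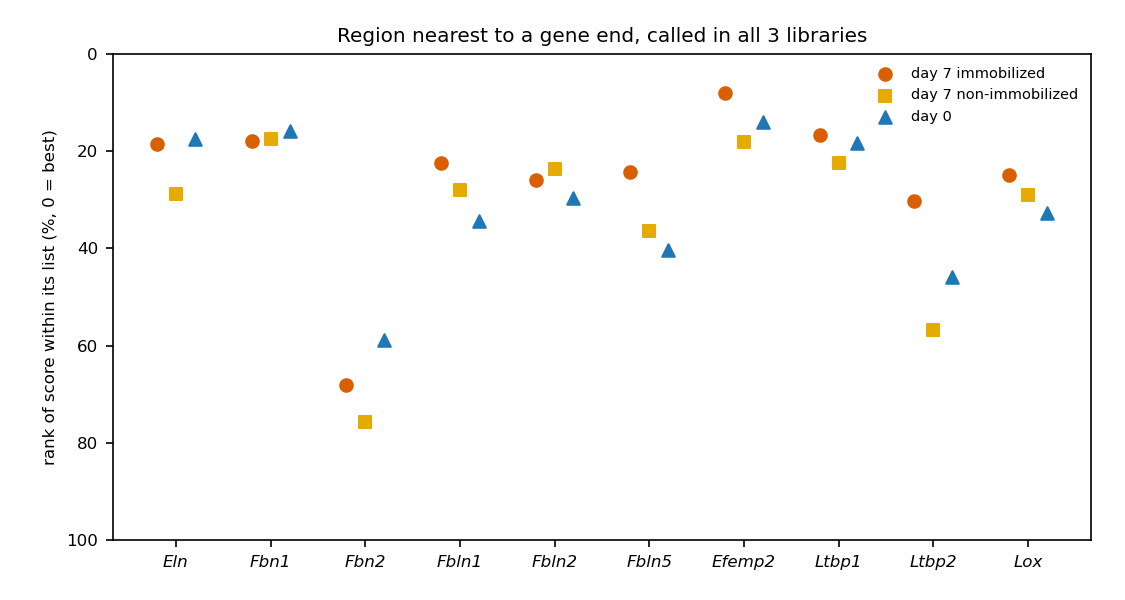
Rank of the score within its list (y axis, %, 0 is best and at the top) for the region nearest to an end of each of the 10 genes (x axis); each point is 1 library, with no error since each group is 1 library. Efemp2 has the best rank of the points shown, 8.05% of the day 7 immobilized list, and Fbn2 stands apart from the other 9 genes at 58.9% to 75.8%. Not drawn are the medians of all assigned gene-end regions called in all 3 libraries. They are 9.90% of the day 7 immobilized, 14.0% of the day 7 non-immobilized and 13.1% of the day 0 list.

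Ltbp1 has a second, inner start in RefSeq, 173 kb downstream of the first, at which a shorter form of the protein begins. A region there was called in all 3 libraries, with its summit at 17.3% of the day 7 immobilized, 26.3% of the day 7 non-immobilized and 33.4% of the day 0 list. It lies over 50 kb from either end of the gene and is therefore not among the regions counted below. Fbn1 and Ltbp1 held 8 and 9 regions this far inside, 17 in all, of which 8 were called in all 3 libraries.

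In all, 99 regions belonged to the 10 genes. Of these, 65 were called in the day 7 immobilized, 58 in the day 7 non-immobilized and 71 in the day 0 library. Fbn1 had 17 regions, Fbln2 and Ltbp2 14 each, Fbln1 13, Eln 12, Ltbp1 11, Fbln5 6, Fbn2 5, Lox 4 and Efemp2 3, where the median gene with any region had 2. Only 12 of the 99 (12.1%, 6.42 to 20.2) lay within 1 kb of a gene end, against 27.0% (26.7 to 27.4) of all 51390 regions assigned to a protein-coding gene. The bounds in parentheses are 95% limits by the exact method of Clopper and Pearson, and they reflect counting error alone. The regions of these genes thus lay near a gene end less often than all assigned regions did. Gene length, from 8.575 kb for Efemp2 to 387 kb for Ltbp1, was not taken into account in that comparison. By position, 67 regions were inside the gene itself and 32 outside it, at any distance from an end.

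**Figure D2:**
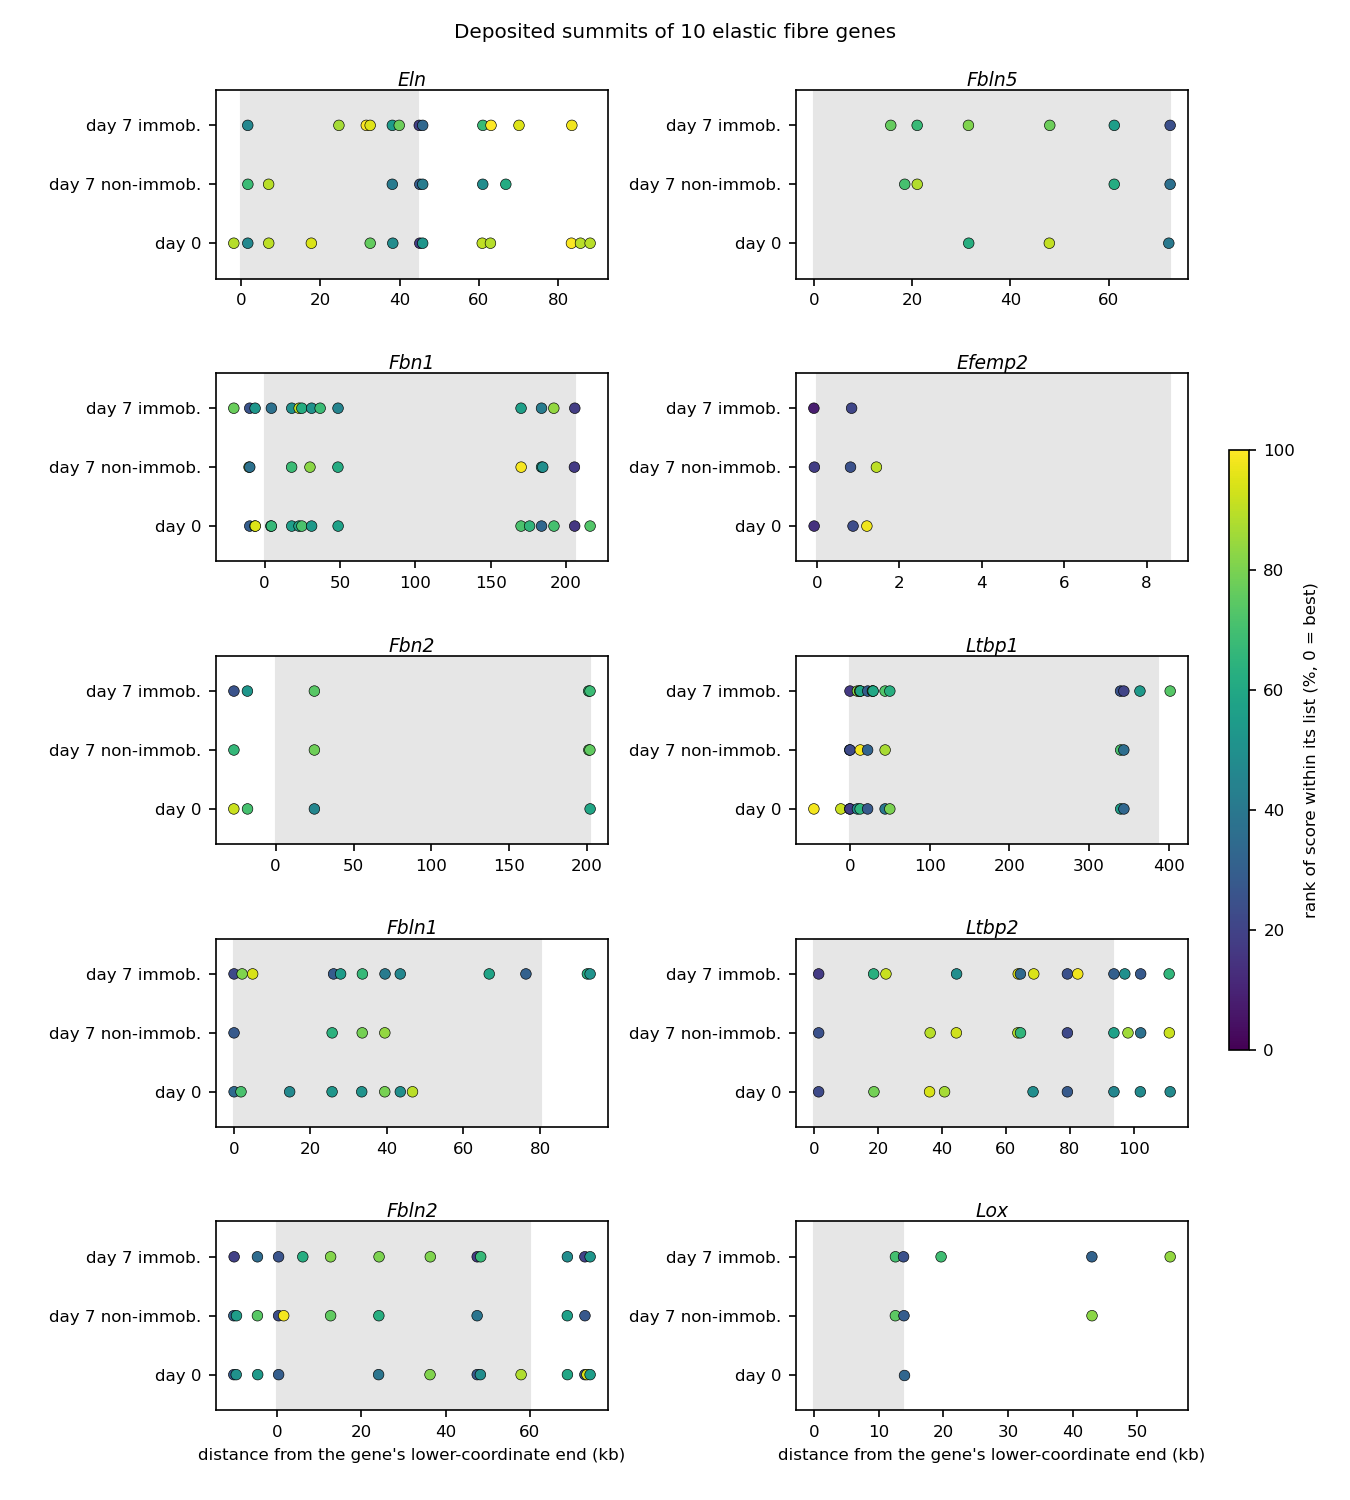
Deposited summits of each gene (1 panel per gene) by distance from the gene's lower-coordinate end (x axis, kb; grey marks the gene body), with 1 row of points per library and colour for the rank of the score within its list (%, 0 is best). The gaps inside Fbn1 and Ltbp1 are stretches over 50 kb from either end, where no summit was counted. Lox has 5, 3 and 1 summits in the day 7 immobilized, day 7 non-immobilized and day 0 rows.

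Regions called in all 3 libraries numbered 37 of 99 (37.4%, 27.9 to 47.7), against 48.5% of all assigned regions. At gene ends 11 of 12 were called in all 3 libraries (91.7%, 61.5 to 99.8), where all assigned regions gave 76.1% (75.4 to 76.8). Away from gene ends it was 26 of 87 (29.9%, 20.5 to 40.6), an interval that holds the 38.2% of all assigned regions at that distance. The remaining regions split into 11 in the day 7 immobilized library alone, 10 in the day 7 non-immobilized alone, 20 at day 0 alone, 7 in both day 7 libraries, 10 in the immobilized and day 0 libraries and 4 in the non-immobilized and day 0 libraries. Of the 20 regions called at day 0 alone, 10 held a weaker immobilized summit that the cut to equal length had removed. The 7 regions of both day 7 libraries and the 11 of the immobilized library alone held no day 0 summit, even in the list as deposited. The cut removed no summit of the non-immobilized list.

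**Figure D3:**
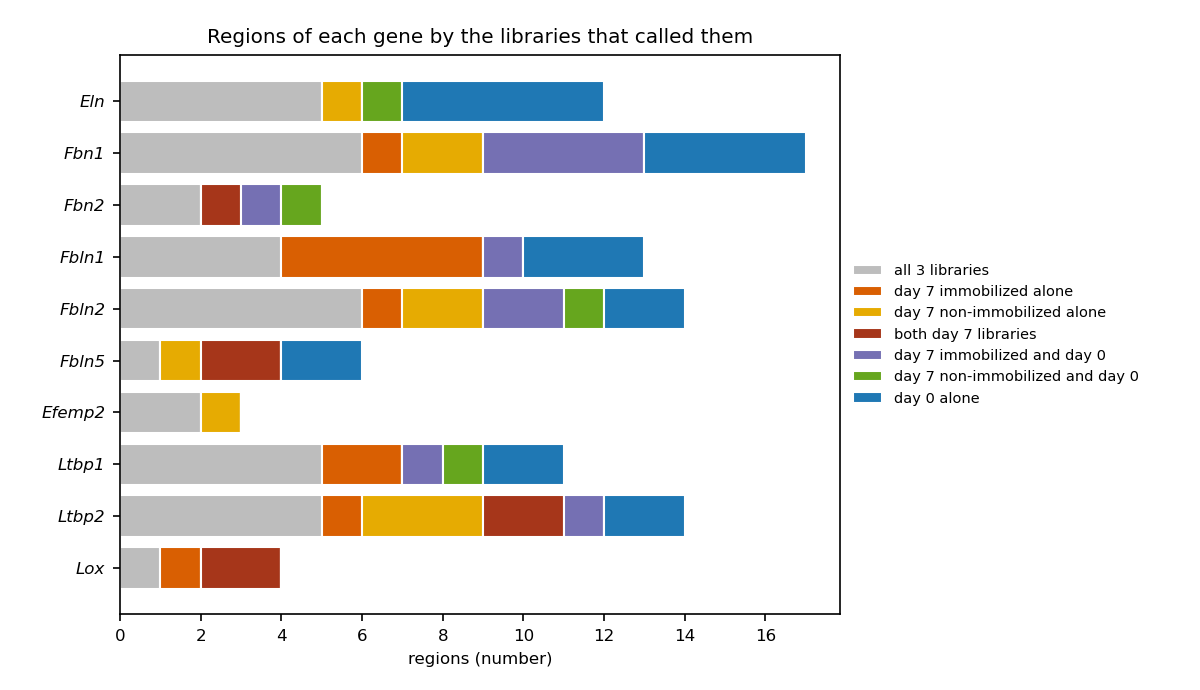
Number of regions of each gene (x axis) coloured by the libraries that called them, on lists of equal length. Eln and Fbn1 have 5 and 4 regions at day 0 alone, Fbln1 has 5 in the day 7 immobilized library alone, and Lox has 3 of its 4 regions outside day 0.

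Of the genes of the elastin core and the fibrillins, Eln and Fbn1 had their most regions at day 0 and Fbn2 did not. Eln had 5 regions in the day 7 immobilized, 7 in the day 7 non-immobilized and 11 in the day 0 library, with 5 called in all 3. Its 5 regions of day 0 alone were weak, at 76.0% to 89.1% of the day 0 list. As deposited, Eln had 12, 7 and 13 summits in the same order, so the immobilized list held nearly as many as day 0 once its weaker summits counted. Fbn1 had 11, 8 and 14 regions, of which 6 were called in all 3. A group of 4 Fbn1 regions was shared by the immobilized and day 0 libraries and missing from the non-immobilized one, at 6.296 kb below the lower end and at 4.524, 24.7 and 31.2 kb inside it. For the innermost of these, a non-immobilized summit that formed a region of its own lay 1101 bp away. The 2 next closest lay 3537 and 5392 bp away, and the fourth 13423 bp.

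Fbn1 also had 1 region called in the non-immobilized library alone that ranked among the 23956 best summits of that list, 21.4 kb inside the upper end at 49.4%. Neither of the other lists had a summit in it, but both had one close by, 801 bp away in the immobilized list (41.8%) and 796 bp away at day 0 (33.1%). Fbn2 had 4 regions in each library. Of its 5 regions, 2 were called in all 3 libraries and 1, at 913 bp inside the upper end, in both day 7 libraries only, at 67.8% of the immobilized and 75.7% of the non-immobilized list. A region 26.8 kb outside Fbn2 was called in all 3 libraries and ranked at 25.8% of the immobilized, 66.8% of the non-immobilized and 92.0% of the day 0 list.

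The fibulin genes did not share a pattern. Fbln1 had 10 regions in the day 7 immobilized, 4 in the day 7 non-immobilized and 8 in the day 0 library. Every one of its 4 non-immobilized regions was also called in the other libraries. Of its 5 regions in the immobilized library alone, the best lay 4.031 kb inside the end away from the start, at position 85282263 of chromosome 15, and ranked at 30.7%. The nearest summits elsewhere were 36.9 kb away in the non-immobilized and 29.6 kb away in the day 0 list, as deposited. The other 4 ranked from 51.5% to 61.9%, and 2 of them lay 12.0 and 12.7 kb beyond the gene.

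Fbln2 had 9, 9 and 11 regions in the day 7 immobilized, day 7 non-immobilized and day 0 libraries, 6 of them in all 3. Several of the shared ones ranked well in every list. A region 12.6 kb inside the upper end of Fbln2 ranked at 17.4%, 39.0% and 27.0%, and another, 13.0 kb beyond the gene, at 19.8%, 27.2% and 24.4%. Fbln5, needed in mice for elastic fibres to assemble, had 3, 4 and 3 regions, and only the one at its start was common to all. Of the rest, 2 were called in both day 7 libraries, 11.4 kb inside the upper and 21.0 kb inside the lower end, with the nearest day 0 summits over 10 kb away (11101 and 10497 bp). The first of these ranked at 55.6% of the immobilized and 61.7% of the non-immobilized list, and the second at 67.6% and 88.3%. Efemp2 had 2, 3 and 2 regions, all within 2 kb of its start.

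Lox was the gene with the fewest regions at day 0 relative to day 7. It had 4 regions in the day 7 immobilized, 3 in the day 7 non-immobilized and 1 in the day 0 library, and 5, 3 and 1 deposited summits. The region at its upper end was the only one called at day 0. Of the others, 1 lay 1.191 kb inside that end, at 70.2% of the immobilized and 74.7% of the non-immobilized list, with the nearest day 0 summit 1265 bp away. Another lay 29.2 kb beyond the gene (position 52559054 of chromosome 18), at 31.5% of the immobilized and 82.4% of the non-immobilized list, with the nearest day 0 summit 28560 bp away. A last one, 5.868 kb beyond the gene, was called in the immobilized library alone at 69.2%.

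Of the binding proteins of latent TGF-beta and their relatives, Ltbp2 had 9 regions in the day 7 immobilized, 10 in the day 7 non-immobilized and 8 in the day 0 library. Regions called in both day 7 libraries and not at day 0 numbered 2. The better of them, 28.8 kb inside the upper end (position 84847731 of chromosome 12), ranked at 33.7% of the immobilized and 65.5% of the non-immobilized list, and the nearest day 0 summit was 3.941 kb away. A region 1505 bp inside the lower end of Ltbp2, the end away from its start, ranked at 17.4%, 24.8% and 22.3%, better in every list than the region at the start. Ltbp1 had 8, 6 and 9 regions, 5 of them in all 3 libraries. Among these, a region 22.1 kb inside the lower end of Ltbp1 ranked at 28.7%, 32.0% and 28.0%, and one 43.2 kb from the upper end at 20.3%, 35.7% and 33.1%.

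The first comparison set the day 7 immobilized library against the day 7 non-immobilized one. Of the regions of the 10 genes, the immobilized library alone held 21, the non-immobilized library alone held 14, and 44 were common to both. The 21 made up 26.6% (17.3 to 37.7) of 79 regions, against 18.3% of all assigned regions, and the 14 made up 17.7% (10.04 to 27.9), against 17.1%. Both intervals hold the background share. Fbln1 had 6 against 0 and Fbn1 5 against 2, Ltbp1 had 3 against 1 and Lox 1 against 0, while Eln had 0 against 2, Fbln5 and Efemp2 0 against 1 each, and Ltbp2 2 against 3. Fbn2 (1 each) and Fbln2 (3 each) were even. Thus the immobilized library held more regions at 4 of the 10 genes, against 24.5% of all genes with any, and the non-immobilized library at another 4, against 22.5% of all. Of those 14814 genes, 7859 had equal numbers. The median gene with a region had 2, while the 10 genes had 3 to 17 each, which these shares of genes do not take into account. The 21 regions ranked from 30.7% to 69.2% of the immobilized list, with a median of 55.0%, and none lay within 1 kb of a gene end. Of the 14, 5 held an immobilized summit in the list as deposited. The non-immobilized list was the shortest and lost no summit to the cut, so the 21 cannot be looked at in this way.

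A stricter count took strong regions of 1 list that were absent from the whole other list as deposited. Of 102 regions of the 10 genes in either deposited list, 1 was among the 23956 best of the immobilized list and absent from the non-immobilized list, the Fbln1 region at 30.7%, against 1.66% of all assigned regions. In the other direction 1 region passed, the Fbn1 region at 49.4%, against 0.899% of all. Of the keratinocyte marker regions, 40 belonged to the immobilized library alone and 1 to the non-immobilized one alone, and the endothelial markers had 10 and 37. Their part in the result was not tested. Among the other 20 genes of elastic fibre assembly, 9 regions were called only in the immobilized and 10 only in the non-immobilized library, and 4 genes had more in the immobilized, 5 more in the non-immobilized and 11 equal numbers. Hmcn1, which encodes hemicentin-1, an extracellular relative of the fibulins, had 2 against 0, Adamtsl2 1 against 0, and Ltbp4, which encodes a latent TGF-beta binding protein that also guides elastin assembly, 2 against 1. Adamtsl4, whose product binds fibrillin-1, had 0 against 2, and Adamts6 and Fbln7 0 against 1 each. The 6 genes of TGF-beta ligands and receptors had 9 against 12, led by the co-receptor gene Tgfbr3 on the immobilized side (6 against 2) and by the ligand gene Tgfb2 on the other (0 against 3).

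The second comparison set the day 7 non-immobilized library against day 0. Day 7 alone held 17 regions of the 10 genes, day 0 alone held 30, and 41 were common to both. The 17 made up 19.3% (11.7 to 29.1) of 88 regions, against 20.8% of all assigned regions. The 30 made up 34.1% (24.3 to 45.0), an interval above the 19.3% of all assigned regions. The genes leaning to day 0 were Fbn1 (2 against 8), Eln (1 against 5), Fbln1 (0 against 4), Ltbp1 (0 against 3) and Fbln2 (2 against 4). Those leaning to day 7 were Lox (2 against 0), Ltbp2 (5 against 3), Fbln5 (3 against 2) and Efemp2 (1 against 0), and Fbn2 had 1 each. So 5 genes had more regions at day 0, against 24.3% of all genes with a region, and 4 had more at day 7, against 26.1%. The number of regions per gene was again not taken into account. The structural genes Eln and Fbn1 held 13 of the 30 day 0 regions. Of the 17 day 7 regions, 2 held a day 0 summit in the list as deposited. With lists as deposited Efemp2 had 0 against 0 and Ltbp2 4 against 3, so the lean of Efemp2 to day 7 came from the cut to equal length.

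The 30 regions ranked from 46.7% to 92.0% of the day 0 list. Their median was 71.5%, close to the 70.0% for all assigned regions called at day 0 and not in the non-immobilized library. None was among the 23956 best of day 0, though the best of them, an Ltbp1 region, came close at rank 24131. So 0 of 90 regions passed as strong at day 0 and absent from the whole non-immobilized list, against 2.22% of all. In the other direction 1 passed, the Fbn1 region named above, against 3.59% of all. The fixed number 23956 is a smaller share of the longer day 0 list. A region at 46.7% of day 0 fell outside it, while the Fbn1 region at 49.4% of the non-immobilized list fell inside. The lean to day 0 was not seen among the 23956 best summits of each list. Without Fbn1 it was smaller but kept its direction. Among those best summits the counts were 5 and 5, a share of 50% (18.7 to 81.3) called at day 7 against 52.1% of all assigned regions. On the lists of equal length without Fbn1 the counts were 15 and 22. That share of 40.5% (24.8 to 57.9) compares with 36.2% for all 10 genes, and its interval holds the 51.9% of all assigned regions. The 34.1% given above was not recomputed without Fbn1. Beside this, regions of endothelial markers numbered 54 at day 7 alone and 12 at day 0 alone, smooth muscle and pericyte markers 7 and 16, skeletal muscle markers 3 and 12 and mesenchymal markers 12 and 23. Their part in the result was not tested. The other 20 elastic fibre genes had 14 and 21, with 5 genes higher in number at day 7, 9 at day 0 and 6 equal. Efemp1, which encodes fibulin-3, had 2 against 0, Adamtsl4 3 against 1 and Adamts6 1 against 0. Loxl1, which encodes a lysyl oxidase relative that maintains elastic fibres, had 1 against 4, Adamts10, whose product binds fibrillin-1, 0 against 2, and Adamtsl2 0 against 1.

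Other matrix genes gave counts on the same side in this comparison. For the 11 fibrillar collagen genes, day 7 alone held 11 regions and day 0 alone held 23, a share of 32.4% (17.4 to 50.5) called at day 7, and the 13 small leucine-rich proteoglycan genes had 4 and 16, a share of 20% (5.73 to 43.7). The share of the 10 elastic fibre genes was 36.2% (22.7 to 51.5), and that of all assigned regions 51.9% (51.2 to 52.7). Col5a2, which encodes a chain of type V collagen, had 1 against 5, Col5a3 0 against 2, Epyc 0 against 3 and Podn 0 against 2. On the day 7 side, Col24a1 and Omd had 1 against 0 each. The intervals of the 3 matrix lists overlapped. TGF-beta ligands and receptors had 16 against 9, where Tgfbr2, which encodes the type II receptor, had 6 against 0.

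**Figure D4:**
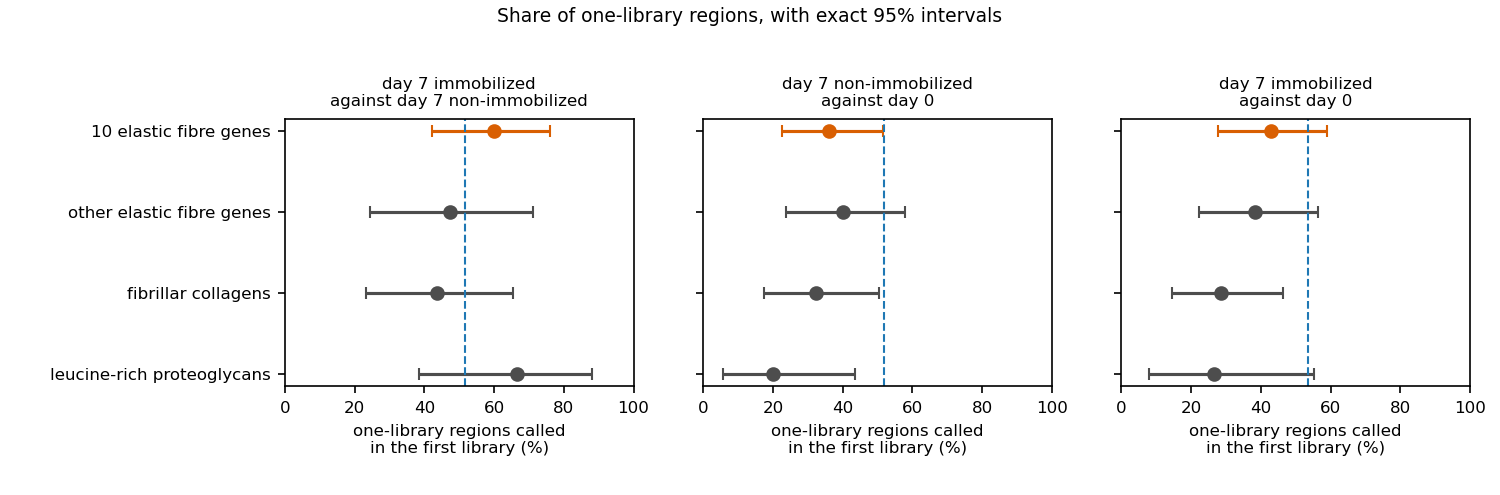
Share of the regions called in only 1 library of a pair that the first-named library held (x axis, %), with exact 95% intervals that cover counting error only, for the 10 elastic fibre genes (orange) and 3 other matrix lists (grey); the dashed line is the share of all assigned regions. The 10 genes lie at 60%, 36.2% and 42.9% in the panels from left to right, and in the middle panel their interval (22.7 to 51.5) ends just below the line at 51.9%. Without Fbn1 that interval (24.8 to 57.9) holds the line.

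The third comparison set the day 7 immobilized library against the same day 0 library. Day 7 alone held 18 regions of the 10 genes against 24 of day 0 alone, with 47 common to both. The 18 made up 20.2% (12.4 to 30.1) of 89 regions, against 21.6% of all assigned regions, and the 24 made up 27.0% (18.1 to 37.4), against 18.9%. Both intervals hold the background share. Lox had 3 against 0, Fbln1 5 against 3 and Ltbp2 3 against 2. Eln had 0 against 6, Fbn1 1 against 4, Fbln2 1 against 3 and Ltbp1 2 against 3, while Fbn2, Fbln5 and Efemp2 were even. So 3 genes had more regions at day 7, against 27.2% of all genes with a region, and 4 had more at day 0, against 23.1%. Here too the number of regions per gene was not taken into account. The lean to day 0 depended on the cut to equal length: 13 of the 24 held an immobilized summit in the list as deposited and 11 did not, whereas 0 of the 18 held a day 0 summit.

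Of 108 regions of the 10 genes in either deposited list, 3 were among the 23956 best of the immobilized list and absent from the whole day 0 list, a share at the 2.80% of all assigned regions. They were the regions of Fbln1 (30.7%), Lox (31.5%) and Ltbp2 (33.7%) described above. In the other direction 0 passed, against 1.05% of all. Regions of Fbln2 (38.8%), Ltbp1 (39.6%) and Fbn2 (45.9%) were among the 23956 best of day 0 and not called in the immobilized library, but the immobilized list as deposited held a summit in each. Beside this, regions of keratinocyte markers numbered 45 at day 7 alone and 3 at day 0 alone, endothelial markers 27 and 12, smooth muscle and pericyte markers 4 and 15 and mesenchymal markers 12 and 31. Their part in the result was not tested. The other 20 elastic fibre genes had 13 and 21, with 3 genes higher in number at day 7, 7 at day 0 and 10 equal. Efemp1 had 2 against 0, Ltbp3, which encodes another latent TGF-beta binding protein, 2 against 1 and Hmcn1 3 against 2. Loxl1 had 1 against 5, Adamts10 0 against 2 and Emilin2, which encodes an elastin interface protein, 1 against 3. Fibrillar collagen genes had 10 against 25, led by Col5a2 (0 against 4) and Col5a1 (2 against 7), and small leucine-rich proteoglycan genes 4 against 11. Leaning to day 7 in these lists were Col24a1 and Prelp (2 against 0 each) and Col2a1 and Podnl1 (1 against 0 each).

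Over the numbers of regions in the 7 combinations of libraries, the genes most like Fbn1 were Prex1 (Euclidean distance 2), St3gal5 (2.45) and Arhgap12 (2.65), and those most like Fbln2 were Mitf and Wsb1 (1.41 each) and Clip2 (1.73). None of the 6 is a gene of the elastic fibre lists. Prex1 had 19 regions, 5 of them at day 0 alone and 3 in the immobilized and day 0 libraries, where Fbn1 had 17, 4 and 4.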

How the data were processed

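The summit lists of 3 mouse ATAC-seq libraries, 1 per group by their sample labels, were used. Per the labels' protocols the Omni-ATAC method was followed. MACS2 2.1.2, Bowtie2 2.3.4.1, bedtools 2.28.0, SAMtools 1.2 and Picard, and the build mm10, are named in the submitters' processing notes. Whether reads were shifted for the transposase, and which filters and peak cutoff were used, is not given in the sources used here. Each deposited list gives the authors' score per summit, which by the MACS2 layout is a −log10 value. Whether of p or of q was not stated, so the score served only for ranks within a list. A deposited table of run statistics holds counts of reads, the duplicates as a fraction and, as a percent, the aligned reads (92.5%, 89.9% and 90.9%). The authors called peaks per library, as the deposited lists show.

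Lists were cut by score to 47912 summits, which removed 19492 at day 7 immobilized, 0 at day 7 non-immobilized and 3810 at day 0. The lowest score kept was 6.61, 1.33 and 4.00. A missing summit says that none passed the authors' call and does not show closed chromatin. Regions went to the protein-coding gene (GRCm38.p6) with the nearest end within 50 kb of the best-ranked summit. Exons and introns were not annotated in the tables used. Members and lists were chosen with earlier results of these data known. All 10 genes were named. In other lists up to 3 genes per pair and direction were taken by the difference over the square root of the sum of the 2 counts, and for the 2 members with most regions the 3 genes closest over the 7 library combinations. Fbln2 and Ltbp2 tied for the second of these places with 14 regions each, and only Fbln2 was taken. Region building and gene distances were tested on simulated data (5000 regions and 2000 distances, 100% recovered). The simulated regions lay far apart relative to the merging width, so the handling of neighbouring summits close to each other was not tested. Alternatives were deposited lists, the 23956 best summits, other widths and distances, giving a summit to the gene it lies in, and regions over 1 kb from an end. Python 3.11.15 was used with scipy 1.17.1, pandas 2.3.3, matplotlib 3.10.9 and numpy 2.4.6.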

Additional observations from a re-analysis of the deposited data

Results flagged for a closer look

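Fbln1 was the only one of the 10 genes whose day 7 libraries lay on opposite sides of day 0: it had 10 regions in the day 7 immobilized and 4 in the day 7 non-immobilized library, against 8 at day 0, a gap of 6 between the day 7 libraries. The difference was not tested, since each group is 1 library and both differences use the same day 0 library. It did not hold with the 23956 best summits, where immobilized minus day 0 was 2 and non-immobilized minus day 0 was 0, nor within 10 kb, where they were 0 and -1.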

How the results depend on the processing

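No paired analysis was possible because each group is 1 library. For the day 7 immobilized and non-immobilized pair, the share of regions called only in the immobilized library was 60% and became 84.9% with lists as deposited, where all assigned regions gave 80.6%; under the other 9 alternatives it stayed inside its interval. For non-immobilized against day 0 (36.2%), the share turned to 100% among strong regions absent from the whole other list, which left 1 region. It was 50% (5 against 5) with the 23956 best summits, 45.5% (16.7 to 76.6, all assigned 53.6%) within 10 kb and 40.5% without Fbn1. These 3 intervals hold the share of all assigned regions, as does that with lists as deposited (31.25%, 18.7 to 46.3, all assigned 45.7%). Other settings kept the interval below that share. Its upper limit was 52.1 with 100 bp on each side (all assigned 52.4%) and 47.1 with 500 bp (50.9%). It was 50.2 within 100 kb (51.1%) and 50.4 with each summit given to the gene it lies in (50.9%). Over 1 kb from an end it was 50.2 (51.0%). For immobilized against day 0 (42.9%), it turned to 70.2% with lists as deposited (all assigned 73.1%), 69.2% with the 23956 best summits, 54.5% within 10 kb and 100% among strong regions absent from the other list (3 regions). That last alternative and the one without the leading gene were chosen after seeing the data. The share called in all 3 libraries (37.4%) was 50% with the 23956 best summits and 54.3% within 10 kb. Deposited summits of the day 7 immobilized, day 7 non-immobilized and day 0 libraries (96, 61 and 81) numbered 27, 22 and 23 among the 23956 best and 31, 27 and 31 within 10 kb. Single genes turned direction, as the number of regions in the first minus the second library, in 10 cases. With lists as deposited these were Eln (5), Fbln5 (2) and Ltbp2 (3) for immobilized minus non-immobilized and Fbln2 (1) and Ltbp1 (3) for immobilized minus day 0. With the 23956 best summits they were Fbn1 (-1) and Ltbp2 (2) for immobilized minus non-immobilized, Eln for non-immobilized minus day 0 (3) and for immobilized minus day 0 (1). With each summit given to the gene it lies in it was Ltbp1 for immobilized minus day 0 (1). Apart from the list lengths, the cause was not tested. Counts of 0 to 8 regions per gene that only 1 library of a pair called limit every statement on single genes.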
